A study of Mus musculus with 2 samples.

Results

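The replication histone genes of the mouse were examined in total RNA of heart. They were taken as every gene whose symbol starts with Hist1h, Hist2h, Hist3h or Hist4h, leaving out 1 gene with the ending -ps. The rule found 69 genes among the 55536 annotated genes of the gene table, and 67 of them are annotated as protein-coding and 2, Hist1h2aj and Hist1h2al, as pseudogenes. By the histone named in the symbol there were 6 H1, 20 H2A, 18 H2B, 12 H3 and 13 H4 genes. The hearts came from male B6CASTF1/J mice, the first-generation cross of C57BL/6J and CAST/EiJ, aged 18 to 20 months, with no treatment named. There were 2 libraries in 1 group, replicates 1 and 2. Each used 300 ng of RNA, ERCC spike-ins (synthetic RNAs of known amount) and a strand-keeping preparation depleted of ribosomal RNA. Both carry the same donor identifier but different sample identifiers, and nothing in the labels says whether they are separate animals. No condition could therefore be compared, and any p-value measures the difference between these libraries, which may be technical.

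Replication histone genes supply the histones that package newly copied DNA, and they are switched on as cells enter S phase. They mostly lack introns, and their mRNAs are typically not polyadenylated. Such an mRNA ends shortly after a conserved stem-loop, which is bound by the protein Slbp. The end is cut with the help of the U7 small nuclear RNA. H2A, H2B, H3 and H4 form the nucleosome core and H1 binds the linker DNA. Replacement histones such as H3f3a and H2afz are made from polyadenylated mRNAs throughout the cell cycle, and most cardiomyocytes of an adult heart do not divide.

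Depth was 39053830 expected counts for replicate 1 and 37447840 for replicate 2. Markers of the tissue were as labelled: 6 of 6 cardiomyocyte markers were at 1 TPM or more in both libraries (TPM is a level per transcript length that sums to the same total in each library), with a summed level of 32597 and 26831 TPM in replicates 1 and 2. The other cells of a heart were present in the RNA as well: 5 of 5 endothelial, 5 of 5 fibroblast, 4 of 5 macrophage and 4 of 5 red cell markers passed 1 TPM in both libraries. None of 5 T and B cell markers and none of 5 male germ cell markers did, and the germ cell markers summed to 0.03 and 0.05 TPM. In such bulk tissue, fewer cells of a type and less RNA per cell cannot be told apart.

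The stem-loop was searched in the annotated transcripts of GENCODE M21. It marks where a replication histone mRNA typically ends and bears on how the length was set in the tables. The histone stem-loop has a stem of 6 bases and a loop of 4 bases. A pattern of 16 bases was searched on the transcript strand. It was GG, 3 pyrimidines, TT, a pyrimidine, any 2 bases, A, 3 purines and CC. Pairing of the arms was not required. A stem-loop with other letters would be missed, so a transcript without a match may still hold one. The pattern was found in 48 of the 77 annotated transcripts of these genes (62.3%) and in 247 of 141690 other transcripts (0.174%). Within 100 bases of the annotated end it was found in 23 of the 77 and in 10 of the others (0.00706%). The 46 genes with a match held 8 versions. The 5 versions found in more than 1 gene are printed 5′ to 3′ as DNA, with the stem in capitals and the loop in lower case:
Hist1h1c, Hist2h2aa2 and 24 others: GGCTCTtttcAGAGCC
Hist1h4h, Hist1h4d and 5 others: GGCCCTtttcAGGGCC
Hist1h1t, Hist1h2bb and 4 others: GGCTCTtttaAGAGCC
Hist1h4i and Hist2h4: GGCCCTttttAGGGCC
Hist1h4b and Hist1h4j: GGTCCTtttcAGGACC
The first version was shared by H1, H2A, H2B and H3 genes and the third by H1, H2B and H3 genes. The other versions occurred in H4 genes, so that among these 5 no H4 gene shared a version with another class. The remaining 3 versions were each in 1 gene, Hist1h4a, Hist1h3g and Hist2h2ac.

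Of the 69 genes, 61 matched a RefSeq promoter window (GRCm38.p6), giving 62 windows of 250 bases upstream of the start. The letters CCAAT, on either strand, were in 82.3% of these windows and in 33.8% of 32789 windows of other genes. TATAAA, on either strand, was in 46.8% and 12.3%. Windows of neighbouring genes that point away from each other overlap, so some matches were counted for both genes. All 6 H1, 17 H2A and 17 H2B windows held CCAAT, against 8 of 10 H3 windows and 3 of 12 H4 windows. The median level was 2.31 TPM for the 29 genes with TATAAA and 2.49 TPM for the 32 without it. The upstream bases of the leading H1 and H4 genes, and those between an H2A and an H2B gene of unequal level, are printed 5′ to 3′ on the gene's strand, with TATAAA and CCAAT (or its complement ATTGG) in capitals; bases inside any annotated exon were left out:
Hist1h1c upstream, chr13:23738557-23738806, + strand, 250 bases: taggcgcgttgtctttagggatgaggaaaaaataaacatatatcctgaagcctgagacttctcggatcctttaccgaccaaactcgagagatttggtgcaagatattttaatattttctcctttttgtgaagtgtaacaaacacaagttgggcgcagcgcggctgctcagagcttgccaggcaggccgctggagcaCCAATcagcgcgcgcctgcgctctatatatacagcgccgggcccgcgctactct
Hist1h4h upstream, chr13:23530944-23531043, + strand, 100 bases: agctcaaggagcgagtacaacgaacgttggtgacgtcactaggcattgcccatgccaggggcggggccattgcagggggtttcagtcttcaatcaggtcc
Between Hist1h2ac and Hist1h2bc, chr13:23683960-23684198, - strand, 239 bases: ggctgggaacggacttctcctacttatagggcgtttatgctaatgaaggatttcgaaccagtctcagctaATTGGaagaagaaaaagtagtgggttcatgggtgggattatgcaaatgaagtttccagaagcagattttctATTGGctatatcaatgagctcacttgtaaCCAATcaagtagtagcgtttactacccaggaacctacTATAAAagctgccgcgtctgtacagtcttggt
The Hist1h1c window held CCAAT 1 time and no TATAAA, and the Hist1h4h stretch held neither. The third stretch lies between the start sites of an H2A and an H2B gene and held CCAAT 3 times and TATAAA 1 time, read toward Hist1h2ac.

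Together the 69 genes were at 573 TPM in replicate 1 and 484 TPM in replicate 2 (528.5 ± 63.2, SD, n = 2), from 11693 and 10101 expected counts. The 67 protein-coding ones held 0.133% and 0.130% of the TPM of all nuclear protein-coding genes. H4 had the highest sum, followed by H2A, H2B, H1 and H3. The H4 genes summed to 196.6 and 157.1 TPM (176.8 ± 27.9), 33.4% of the total. The H2A genes summed to 156.8 and 136.6 TPM (146.7 ± 14.3), 27.8% of the total. The H2B genes summed to 105.8 and 99.3 TPM (102.5 ± 4.62), 19.5% of the total. In this order each class lay above the next in every pairing of the libraries, although the lower H4 value and the higher H2A value nearly met. The H1 genes summed to 77.2 and 60.7 TPM (68.9 ± 11.7), 13.01% of the total. The H3 genes, which encode a core histone as the H4 genes do, summed to 36.8 and 30.1 TPM (33.5 ± 4.73), 6.33% of the total. The second transcript table, a separate quantification of the same libraries deposited by the authors, gave 582.9 and 490.4 TPM in all, with shares of 33.1% for H4, 30.1% for H2A, 16.2% for H2B, 13.2% for H1 and 7.52% for H3. The order of the classes was the same, and there the H4 and H2A values of the libraries overlapped. The similar TPM came with fewer counts in all, 9247 and 7594, and with shorter lengths as divisors, as given below. H4 had 1445 and 1007 counts there against 3117 and 2552 in the first table. H1 had 3591 and 2666 against 3543 and 2844. Over the 43 genes whose sequence is mostly found in no other gene, the shares were 43.9% for H4, 20.6% for H1, 20.5% for H2B, 11.4% for H2A and 3.67% for H3. The place of H2A in the order thus rested on its copies. The H2A values include the mostly unique pseudogene Hist1h2al. It made up 13.9% of the H2A sum in the first table and was at 0 in the second.

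**Figure D1:**
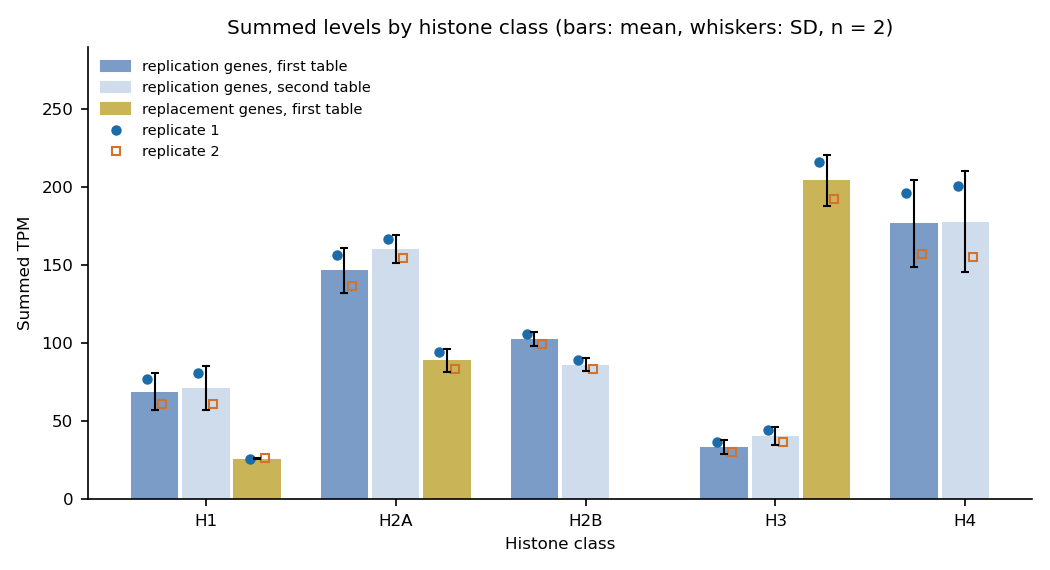
Summed TPM (vertical axis) of each histone class; bars are means of the 2 libraries, whiskers their SD, points the libraries. Replication genes are shown in both tables and replacement genes, for H1, H2A and H3, in the first table; the H3 replacement genes stand at 216 and 193 TPM above replication H3 genes at 36.8 and 30.1 TPM.

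The total rested on few genes. Hist1h4h, Hist2h2aa2, Hist1h1c and Hist1h2bc held 48.2% of the summed TPM, and the 10 highest genes held 66.4%. Of the 69 genes, 12 had a mean of at least 10 TPM, 41 were between 1 and 10 TPM, and 16 were under 1 TPM. At least 1 TPM in both libraries was reached by 42 of 69 genes (60.9%), and by 10882 of 22015 nuclear protein-coding genes (49.4%). By class these were 2 of 6 H1, 10 of 20 H2A, 12 of 18 H2B, 8 of 12 H3 and 10 of 13 H4 genes. By the second table there were 38, and 30 passed in both tables.

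**Figure D2:**
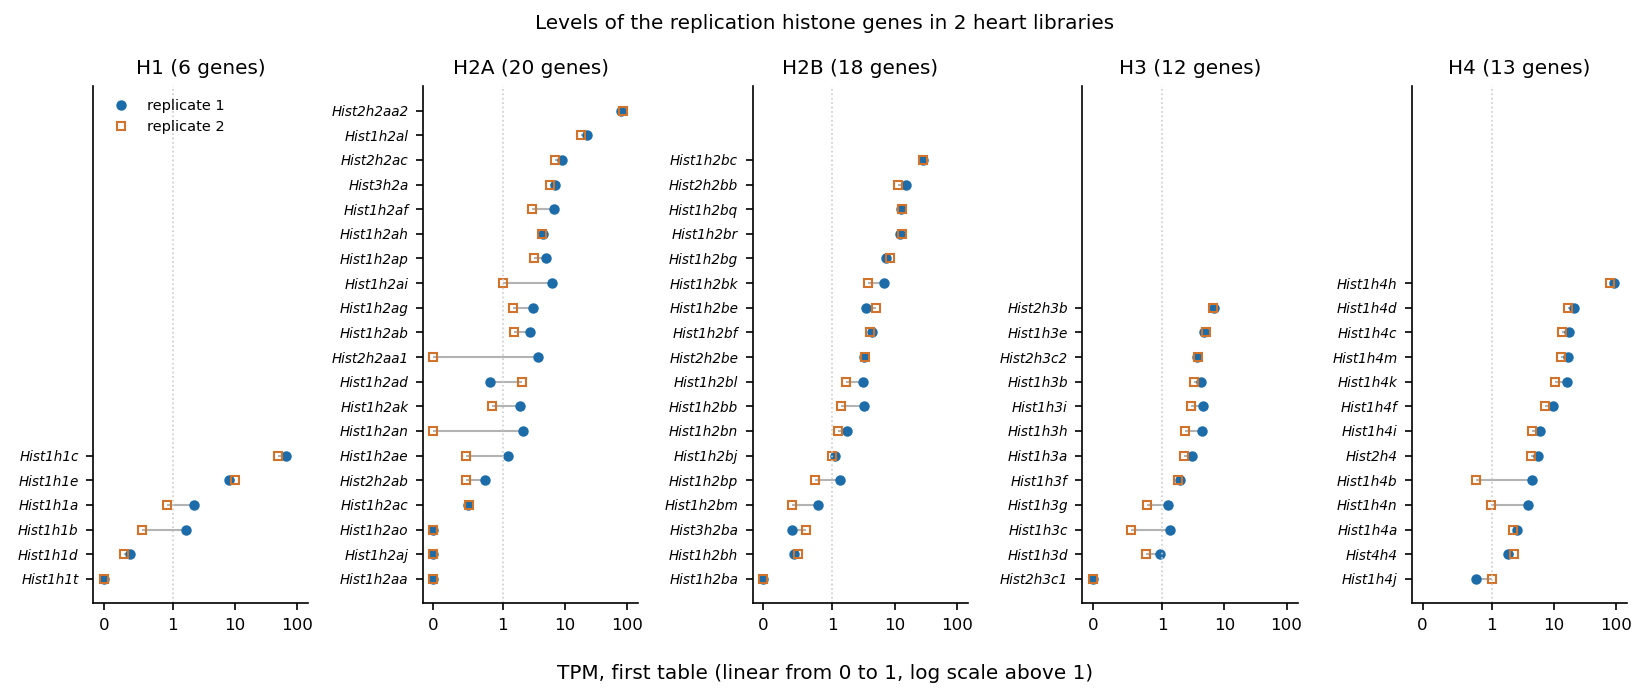
TPM of each gene in the first table (horizontal axis, linear from 0 to 1 and logarithmic above) by class, with a filled circle for replicate 1 and an open square for replicate 2. A leading gene stands apart in H1, H2A, H2B and H4, the 6 highest H3 genes lie between 2.3 and 6.76 TPM, and 6 genes sit at 0 in both libraries.

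H1 was largely Hist1h1c. This gene (chr13:23738808-23740367), a somatic linker histone listed by RefSeq as H1f2, stood at 65.1 TPM in replicate 1 and 49.1 TPM in replicate 2, or 82.9% of the H1 sum. Hist1h1e followed at 7.91 and 9.80 TPM. Hist1h1a was at 2.17 and 0.91 TPM and Hist1h1b at 1.61 and 0.56 TPM, each above 1 TPM in replicate 1 alone. Hist1h1d was at 0.38 and 0.29 TPM. Hist1h1t, the linker histone of the testis, was listed at 0 in both libraries. H1 sequences are distinct: the median H1 gene had 99.6% of its 100-base stretches in no other gene.

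Among the H2A genes, 1 pair of copies led. Hist2h2aa2 (chr3:96239749-96240276) was listed at 79.6 and 86.8 TPM and Hist2h2aa1 (chr3:96245497-96246082) at 3.73 and 0 TPM. Every 100-base stretch of Hist2h2aa2 also occurs in another gene, so the sum of the pair is the value to read: 83.3 TPM in replicate 1 and 86.8 TPM in replicate 2. The second table put the pair at 106 and 120 TPM with all of it on Hist2h2aa1. Gm20634, a transcript on the same strand that holds 88.3% of the stretches of Hist2h2aa1, was at 2.02 and 2.21 TPM. The next gene, the pseudogene Hist1h2al (chr13:51202727-51203065), was at 22.3 and 18.4 TPM in the first table and at 0 in the second, although 80.8% of its stretches are in no other gene. Hist2h2ac was at 8.91 and 6.90 TPM, Hist3h2a at 7 and 5.75 TPM, Hist1h2af at 6.69 and 3 TPM and Hist1h2ah at 4.38 and 4.22 TPM. In TPM all 4 were lower in replicate 2, Hist1h2ah by little. Besides these and the Hist2h2aa pair, 7 H2A genes past 1 TPM on average had means from 1.06 to 4.06 TPM. Hist1h2aa, the H2A gene of the testis, was listed at 0 in both libraries, and so were Hist1h2aj and Hist1h2ao.

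H2B was spread over more genes. Hist1h2bc (chr13:23684199-23692908) was at 28.7 and 29.1 TPM and made up 28.2% of the H2B sum. Its annotated transcript has 2 exons and no match to the stem-loop. Hist2h2bb was at 14.99 and 11.5 TPM in the first table but at 2.40 and 3.56 TPM in the second. Hist1h2bq and Hist1h2br, copies of which the first has 94.8% of its stretches in the second, were listed at 12.5 and 13.2 TPM and at 12.4 and 13.2 TPM. Their sum was 24.9 and 26.4 TPM, against 11.2 and 0.0394 TPM in the second table. Hist1h2bg was at 7.33 and 8.52 TPM and Hist1h2bk at 6.65 and 3.72 TPM. The remaining 8 H2B genes past 1 TPM on average had means from 1.035 to 4.27 TPM. Hist1h2ba, the H2B gene of the testis, was listed at 0 in both libraries of the first table.

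No H3 gene led its class by much. Hist2h3b (chr3:96268654-96269141) was at 6.76 and 6.71 TPM, 20.1% of the H3 sum. Hist1h3e was at 4.68 and 5.09 TPM and Hist2h3c2 at 3.61 and 3.83 TPM. These 3 differed little between the libraries, while the next 3 were lower in replicate 2. Hist1h3b was at 4.23 and 3.21 TPM, Hist1h3i at 4.52 and 2.87 TPM and Hist1h3h at 4.45 and 2.30 TPM. Hist2h3c1 was listed at 0 in both libraries, and all of its stretches occur in another gene. The gene Gm20628 lies on the opposite strand over Hist2h3b and Hist2h2bb at 0.04 and 0.03 TPM, and whether the counting used strand is not given in the sources used here.

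H4 was led by Hist1h4h (chr13:23531050-23531519), the highest of all 69 genes at 90.7 and 79.9 TPM and 48.3% of the H4 sum. In the second table it stood at 145 and 110 TPM, though with fewer counts, 812 and 555 against 1039 and 909. Hist1h4d was at 21.3 and 17.1 TPM, Hist1h4c at 17.1 and 13.4 TPM and Hist1h4k at 15.9 and 10.4 TPM. Hist1h4m and its copy Hist1h4n summed to 20.6 and 14.1 TPM, with 16.8 and 13.1 TPM of it on Hist1h4m. Hist1h4f was at 9.73 and 7.10 TPM. All 7 of these H4 genes were lower in replicate 2 in the first table. In the second, Hist1h4k was higher there, at 6.36 and 8.62 TPM, and Hist1h4n was listed at 0 in both libraries. All 13 H4 genes were above 0 in both libraries of the first table, and Hist1h4j, at 0.78 and 1.02 TPM, had the lowest mean.

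Most of the family lies in 1 cluster on chromosome 13 (mm10), where 55 of the 69 genes fall between positions 21715763 and 23934851; Hist1h2al is the only other member on that chromosome. The 56 genes of chromosome 13 held 74.4% ± 2.55 of the summed TPM. The 10 genes of chromosome 3, between 96219865 and 96270132, held 23.9% ± 2.43, most of it from the Hist2h2aa pair. The 2 genes of chromosome 11 held 1.31% and Hist4h4 on chromosome 6 held 0.394%. Median levels were 2.39 TPM on chromosome 13 and 4.33 TPM on chromosome 3.

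Within these clusters, 14 pairs of neighbours start less than 1000 bases apart and point away from each other, and 13 of them join an H2A with an H2B gene. Partners were often at unequal levels. Hist1h2ac was at 0.50 and 0.52 TPM and Hist1h2bc, which starts 250 bases away across the third stretch printed above, at 28.7 and 29.1 TPM, a ratio of the means of 56.7 (54.6 in the second table). The annotated Hist1h2ac transcript has 2482 bases and runs 2010 bases past its stem-loop; with the length taken to the stem-loop its level would be 3.19 and 3.33 TPM. Hist1h2ae was at 1.21 and 0.47 TPM beside Hist1h2bg at 7.33 and 8.52 TPM, a ratio of 9.43 (3.44 in the second table). Hist1h2ak and Hist1h2bn, at 1.87 and 0.84 TPM and at 1.75 and 1.23 TPM, were nearly equal, with a ratio of 1.10 (1.22 in the second table, with the other partner higher). For the pair of the testis genes Hist1h2ba and Hist1h2aa both partners were listed at 0 in the first table.

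The annotated transcripts end in different places relative to the stem-loop, and TPM divides counts by an effective length that is set from the annotated length. The second table has shorter effective lengths than the first. For Hist1h4h, annotated at 470 bases, they were 371 bases in the first table and 166 and 156 bases in the second. Their part in the differences between the tables was not tested. Transcripts that end within 100 bases after a stem-loop numbered 23, with a median length of 482 bases. They carried 44.8% of the summed TPM in replicate 1 and 45.8% in replicate 2 (45.3% ± 0.764, n = 2). Hist1h4h, Hist2h2aa2 and Hist1h4m led them. Another 25 transcripts ran on past the stem-loop, with a median length of 1261 bases and up to 7425 bases for Hist1h1d, and carried 27.7% ± 0.0351. Hist1h1c, whose transcript extends 840 bases past its stem-loop, Hist1h4d and Hist1h4c led these. The 13 transcripts annotated as coding sequence alone carried 12.96% ± 1.31, led by Hist2h2bb and Hist1h4k, and the 16 with other bases but no match carried 14.0% ± 0.508, led by Hist1h2bc and Hist1h2al. In the second table the first kind carried 60.9% ± 0.180. With the length taken up to the stem-loop instead of the annotated end, an alternative chosen after seeing the data, Hist1h1c would be at 153 and 116 TPM, Hist1h4d at 82.4 and 65.9 TPM and Hist3h2a at 35.5 and 29.2 TPM. The sum of the 69 genes would then be 825.3 TPM, and H1, at 161.9 TPM, would pass H2B, at 116.5 TPM. Where along the transcripts the reads fell was not analysed here.

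**Figure D3:**
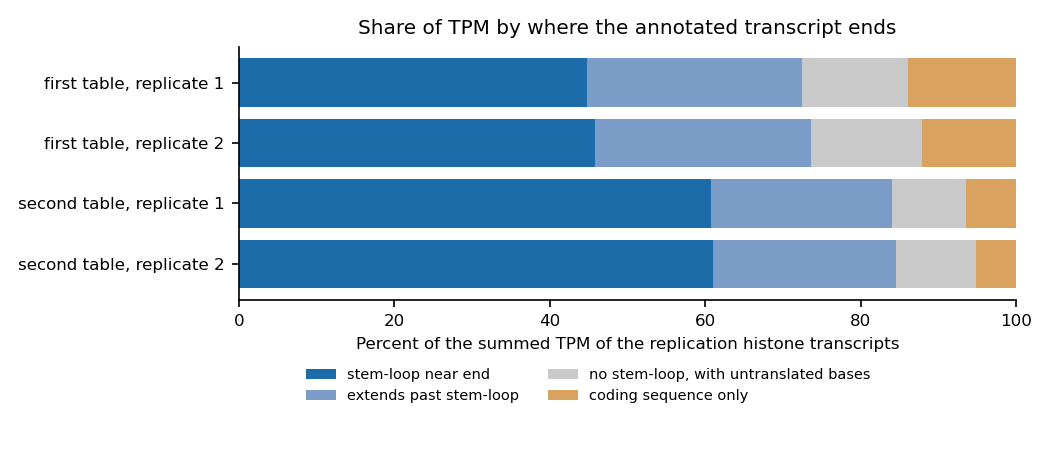
Percent of the summed TPM of the 77 transcripts (horizontal axis), by where the annotated transcript ends, for each library in each table. Transcripts ending near the stem-loop take 44.8% and 45.8% in the first table and 60.8% and 61.0% in the second.

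Replacement genes gave a different balance for each class. The linker histone H1f0, which is typical of cells that have stopped dividing, was at 25.2 and 25.8 TPM, and the replication H1 sum was 2.67 ± 0.501 times (n = 2) the sum of the replacement H1 genes. For H2A the ratio was 1.65 ± 0.0240. The replacement H2A genes were led by H2afv at 28.8 and 30.7 TPM and H2afz at 26.3 and 23.2 TPM, both forms of H2A.Z, and by the macroH2A gene H2afy at 19.0 and 15.1 TPM. H2afj was at 14.3 and 9.85 TPM. For H3 the balance was turned: the replication genes had 0.163 ± 0.00992 of the replacement level. H3f3a was at 146 and 132 TPM, H3f3b at 43.0 and 38.4 TPM, and Cenpa, the histone H3 of centromeres, at 26.8 and 22.6 TPM. H3f3a alone was thus above all 12 replication H3 genes together in both libraries.

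Of 26 genes of S phase, 13 reached 1 TPM in both libraries, beside 49.4% of all nuclear protein-coding genes. Their median was 1.17 TPM, beside 1.07 TPM for all nuclear protein-coding genes and 2.59 TPM for the 69 histone genes. Pcna, the sliding clamp of DNA replication, was at 16.9 and 13.3 TPM, Ung, which removes uracil from DNA, at 10 and 7.15 TPM, Rrm1, a subunit of the enzyme that makes deoxyribonucleotides, at 3.83 and 4.03 TPM and Mcm7, of the replicative helicase, at 3.75 and 2.96 TPM. None of 10 mitotic genes reached 1 TPM in both libraries. Mki67 was at 0.74 and 0.41 TPM, Top2a at 0.74 and 0.64 TPM, Cdk1 at 0.64 and 0.38 TPM and Cdc20 at 0.50 and 0.40 TPM.

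Factors that make and process histone mRNA were mostly detected, at 17 of 19. Slbp, the stem-loop binding protein, was at 5.94 and 4.71 TPM, and Npat, the coactivator of these genes, at 2.04 and 1.99 TPM. The highest of the list were Sympk, of the cleavage complex, at 34.3 and 27.5 TPM, Srrt, which couples the cap to RNA processing, at 17.9 and 22.9 TPM, Upf1, an RNA helicase that takes part in histone mRNA decay, at 18.6 and 16.1 TPM, and Tut7, a uridylyl transferase, at 16.2 and 14.5 TPM. The exceptions were Zfp473, at 0.01 and 0.02 TPM, and Rnu7, the gene of the U7 RNA, listed at 0. Whether the libraries and the counting could capture this small nuclear RNA was not tested, so its 0 is not read as absence. Of 20 histone chaperones and importers 17 were detected. Nap1l4 was at 77.0 and 66.4 TPM, Rbbp7 at 70.3 and 60.0 TPM, Rbbp4 at 29.9 and 24.9 TPM and Nap1l1 at 26.9 and 26.3 TPM. The 3 that were not were Asf1b, at 0.52 and 0.68 TPM, Chaf1a, at 0.52 and 0.26 TPM, and Chaf1b, at 0.16 and 0.28 TPM. Chaf1a and Chaf1b encode subunits of CAF-1, which places histones on newly copied DNA.

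Between the libraries the direction of the family's sum depended on the scaling. The log2 ratio of the summed counts, replicate 2 over replicate 1, was -0.07 (95% counting interval -0.11 to -0.04) with TMM library sizes, -0.15 (-0.19 to -0.11) with total counts and 0.02 (-0.02 to 0.06) with spike-in counts. By class, with TMM, it was -0.18 (-0.25 to -0.11) for H1, -0.05 (-0.14 to 0.04) for H2A, -0.07 (-0.24 to 0.09) for H3 and -0.15 (-0.23 to -0.08) for H4. For H2B it was 0.15 (0.07 to 0.24). The H2A and H3 sums also turned with spike-in counts, to 0.05 (-0.04 to 0.13) and 0.02 (-0.15 to 0.19). H2B counts were above and H1 and H4 counts below 0 with TMM, total counts and spike-in counts, though with total counts the H2B interval (-0.01 to 0.16) and with spike-in counts the H4 interval (-0.13 to 0.02) held 0. In summed TPM H2B was lower in replicate 2 like the other classes. Gene by gene, the median over the 53 genes that averaged 1 TPM or more was -0.25, with 38 of 53 lower in replicate 2, while the median over all 12189 genes tested was -0.02, with 54.5% lower. The levels of the 69 genes had a Pearson correlation of 0.944 on the log2(TPM + 1) scale and a Spearman correlation of 0.910 between the libraries, given as a description since genes are not independent and copies share reads.

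**Figure D4:**
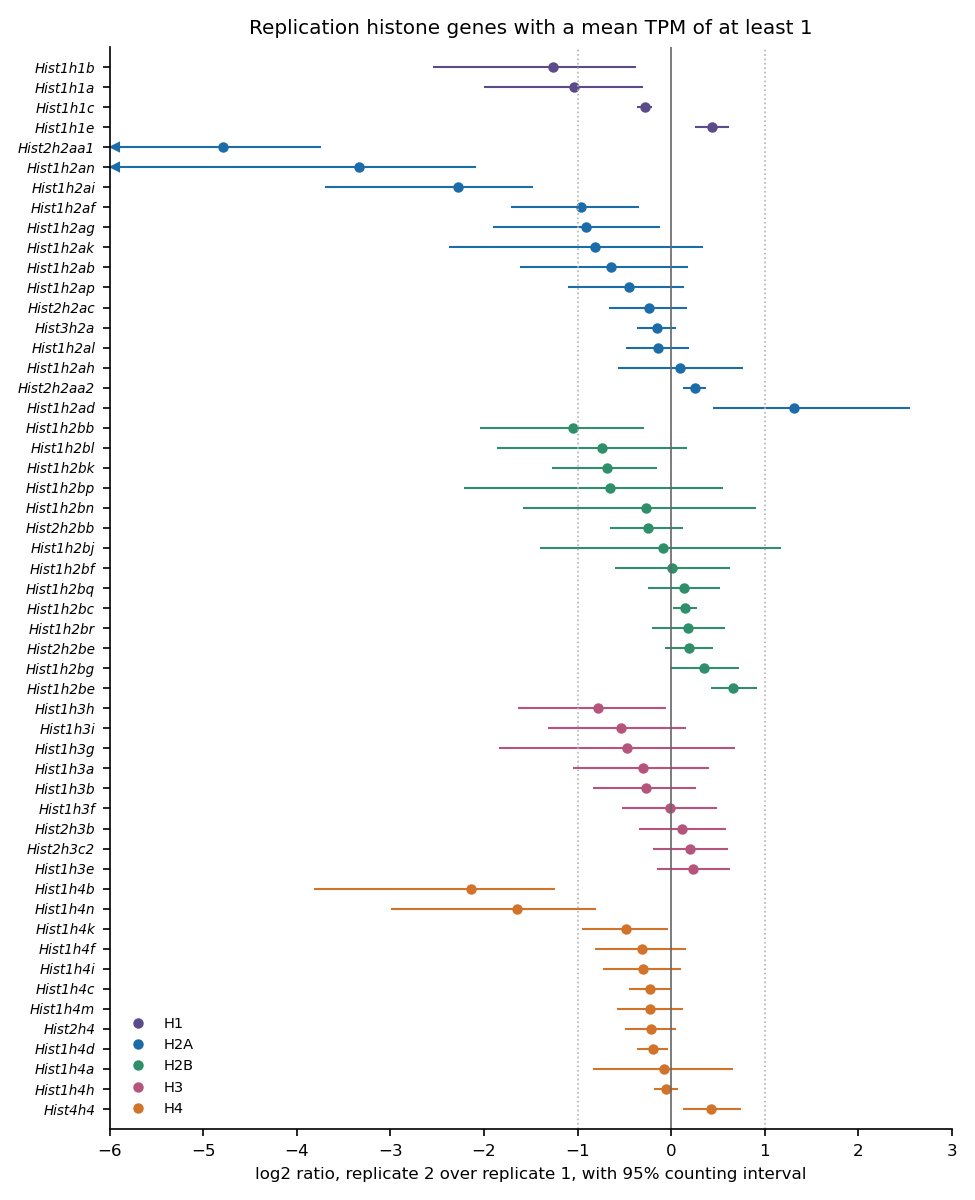
Log2 ratio of replicate 2 over replicate 1 (horizontal axis) for the 53 genes that averaged 1 TPM or more, ordered within class; lines are 95% counting intervals, dotted lines mark 2-fold and arrows intervals without a lower limit. The 2 genes with arrows, Hist2h2aa1 and Hist1h2an, are at 0 in replicate 2, so their points depend on the prior count.

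At least 2-fold lower in replicate 2 were 8 of the 53 genes, against 1.13% of all genes tested, and at least 2-fold higher was 1 of the 53, against 0.533%. By an exact binomial test with Benjamini-Hochberg adjustment over the 12189 genes, 11 of the 53 were lower (20.8%, against 15.9% of all genes) and 5 were higher (9.43%, against 10.7%). The adjusted test thus called these genes at shares near those of all genes. Hist2h2aa1 went from 56.1 expected counts to 0, at least 17.0-fold lower against a floor of 3 counts, but it is a copy whose pair sum was higher in replicate 2. Hist1h2an went from 19.2 counts to 0, at least 5.83-fold lower, Hist1h2ai from 6.21 to 1.01 TPM (log2 ratio -2.28, -3.70 to -1.47) and Hist1h4n from 3.78 to 0.99 TPM (-1.65, -2.99 to -0.80). Each of these 4 genes has most of its stretches in other genes, and in the second table Hist1h2ai had -0.78, short of 2-fold, Hist2h2aa1 had 0.22, Hist1h2an was at 1.94 and 0 TPM and Hist1h4n was at 0 in both libraries. The other 4 were mostly unique: Hist1h4b went from 4.41 to 0.77 TPM (-2.14, -3.81 to -1.24), Hist1h1b from 1.61 to 0.56 TPM (-1.26, -2.54 to -0.38), Hist1h2bb from 3.25 to 1.36 TPM (-1.05, -2.04 to -0.29) and Hist1h1a from 2.17 to 0.91 TPM (-1.04, -2.001 to -0.29). In the second table the ratios of these 4, in the same order, were -2.01, -1.35, -0.23 and -1.16, so that of Hist1h2bb did not reach 2-fold there.

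The gene past 2-fold higher was Hist1h2ad, from 0.82 to 2.04 TPM (log2 ratio 1.32, 0.45 to 2.56). It was lower in replicate 2 in the second table (-0.84), and 36.4% of its stretches are unique. Among genes with more counts the ratios were smaller: Hist1h2be went from 3.45 to 5.09 TPM (0.66, 0.42 to 0.91), Hist1h1e from 7.91 to 9.80 TPM (0.43, 0.25 to 0.62), Hist4h4 from 1.83 to 2.27 TPM (0.43, 0.12 to 0.75; in the second table -0.24, from 0.918 to 0.721 TPM) and Hist1h2bg from 7.33 to 8.52 TPM (0.35, -0.01 to 0.72). The first 3 passed the exact binomial test and Hist1h2bg did not, with adjusted p-values of 5.3e-07, 2.0e-05, 0.023 and 0.16. Hist1h1c, with 2936 and 2201 expected counts, had a log2 ratio of -0.28 (-0.36 to -0.20), with an adjusted p of 1.2e-10 by the same exact test. The deposited intervals of TPM did not overlap between the libraries for 8 genes that were lower in replicate 2. These were Hist1h1a, Hist1h1b, Hist1h1c, Hist1h2bb, Hist1h4b, Hist1h4c, Hist1h4d and Hist3h2a. Nor did they for 2 that were higher, Hist1h1e and Hist1h2be. These 2 are not separate, as their annotated ranges overlap on the same strand and 21.7% of the stretches of Hist1h1e occur in Hist1h2be. The same was not counted over all genes, so whether these counts are unusual for the family cannot be told.

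Grouped by transcript end, the 23 genes whose leading transcript ends near the stem-loop had a ratio of summed counts of -0.07 (-0.14 to 0.01), the 22 that extend past it -0.12 (-0.18 to -0.07), the 13 with coding sequence alone -0.35 (-0.52 to -0.18) and the 11 others 0.14 (0.05 to 0.24). In the same order, the medians over genes that averaged 1 TPM or more were -0.38, -0.08, -0.54 and 0.10. Lower in replicate 2 were 17 of 20, 8 of 13, 9 of 11 and 4 of 9 of them, beside 54.5% of all genes tested. Sums of other lists also differed between the libraries, in both directions. The 10 mitotic genes summed to 4.74 TPM in replicate 1 and 2.83 TPM in replicate 2, the S phase genes to 61.0 and 51.5 TPM, the macrophage markers to 45.5 and 30.7 TPM, the red cell markers to 10471 and 6792 TPM, the fibroblast markers to 198 and 178 TPM and, as given above, the cardiomyocyte markers to 32597 and 26831 TPM. The endothelial markers summed to 168 and 172 TPM and the T and B cell markers to 1.01 and 1.95 TPM. Their part in the ratios of the histone genes was not tested.

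Copies limited what could be said gene by gene. By stretches of 100 bases, 43 of the 69 genes were mostly unique (at least 50% in no other gene), 7 entirely so, and 2 had no stretch of their own. The median share was 99.6% in H1, 81.0% in H4, 63.6% in H2B, 50.3% in H3 and 35.5% in H2A. The first table gives a posterior SD for each count. It was over 20% of the count in both libraries for 16 of the 53 genes that averaged 1 TPM or more. For 18 of the 53 it was under 5% in both. Its median was 2.56% and 3.11% of the count in the 30 mostly unique genes that averaged 1 TPM or more, and 25.03% and 33.1% in the 23 mostly shared ones. Sets were joined where at least 80% of the stretches of 1 gene occur in another, and they are best read as sums. Such a link can be one-sided: Hist1h2ad has at most 55.2% of its own stretches in any other single gene. Hist1h2ad, Hist1h2ah, Hist1h2ai and Hist1h2aj summed to 11.4 and 7.27 TPM, and Hist1h2ao with Hist1h2ap to 4.92 and 3.20 TPM. As a set, the first 4 had a log2 ratio of -0.35 (-0.80 to 0.07), although 1 of them was called lower and another higher on its own. The pair Hist1h4m and Hist1h4n had -0.43 (-0.76 to -0.11) and the Hist2h2aa pair 0.18 (0.06 to 0.30).

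The second table gave other levels for many single genes. Of the 57 genes that averaged 1 TPM or more over both tables, 15 were at least 2-fold lower in the second table in both libraries (against 3.06% of 12409 genes) and 8 were at least 2-fold higher (against 2.69%). Across the 69 genes the mean levels in the tables had a Pearson correlation of 0.521 on the log2(TPM + 1) scale. It was 0.729 over the 43 mostly unique genes and 0.176 over the 26 mostly shared ones. Differences occurred among mostly unique genes as well: 7 of the 34 tested were lower and 6 higher. These ranged from Hist1h2bf, 53.6% unique, and Hist2h2bb, 54.6%, to Hist1h4d and Hist2h4, both 100%. The stretches were compared on the same strand only.

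Of the 15 genes that were lower, 5 were listed at 0 in the second table: Hist2h2aa2, Hist1h2al, Hist1h2ah, Hist1h2bl and Hist1h4n. By the fold between the means, the largest differences with a value above 0 in both tables were those of Hist1h4f (9.73 and 7.10 TPM against 1.19 and 0.312 TPM) and Hist1h4d (21.3 and 17.1 TPM against 4.25 and 2.66 TPM). By the stretches, Hist1h4f was 81.8% unique and Hist1h4d 100%. Hist1h4d had 684 and 543 expected counts in the first table and 119 and 70 estimated counts in the second. Hist2h4, also fully unique, had 261 and 204 counts against 75 and 64. Of the 8 that were higher, Hist2h2aa1 and Hist1h2ad have most of their sequence in other genes. Hist1h4a was at 2.56 and 2.20 TPM against 11.8 and 10.1 TPM, Hist1h2bb at 3.25 and 1.36 TPM against 8.996 and 7.61 TPM, and Hist1h2bf at 4.38 and 4.01 TPM against 12.8 and 12.98 TPM. In counts these differences were smaller. Hist1h4a had 34.7 and 29.7 against 92.1 and 71.0 counts, Hist1h2bb 41.0 and 17.0 against 60.9 and 46.4, and Hist1h2bf 48.9 and 44.5 against 68.4 and 62.4. Hist1h2ba, listed at 0 in the first table, counted among the 8 with 5.54 TPM in replicate 2 and next to nothing in replicate 1. By contrast Hist1h1c stood at 65.1 and 49.1 TPM against 66.1 and 48.8 TPM, and Hist1h2bc at 28.7 and 29.1 TPM against 26.7 and 27.6 TPM.

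**Figure D5:**
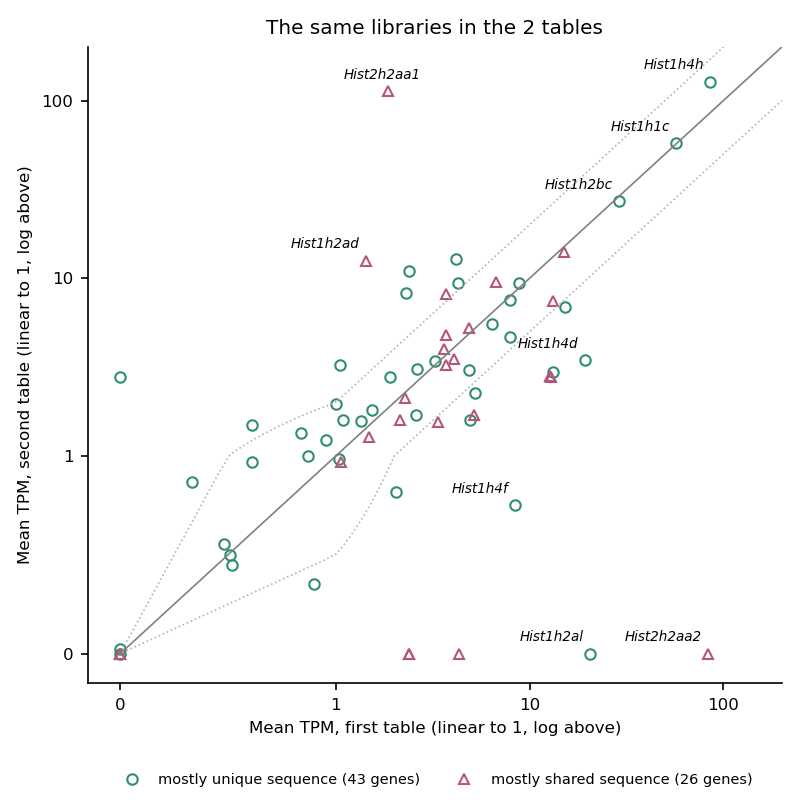
Mean TPM of each gene in the first (horizontal) and second (vertical) table, linear from 0 to 1 and logarithmic above; the line marks equal values and the dotted curves 2-fold. Hist1h1c and Hist1h2bc lie on the line, while Hist1h4d and Hist1h4f, mostly unique, lie below it.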

How the data were processed

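Total RNA of heart was measured in 2 libraries of 1 group. The authors deposited, per library, a gene table and a first transcript table with expected counts, TPM, a posterior SD of the count and bounds of TPM (level not given), computed from transcriptome alignments according to the list of files, and a second transcript table with estimated counts and TPM. That list gives mm10 and GENCODE M21. Quantification tools and strand setting are not given in the sources used here. Values are from the first tables unless stated. The second was summed per gene.

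Members and lists were chosen with earlier results of these data known. Named genes followed a rule: up to 6 of highest mean TPM per class, those at 0, up to 5 of largest ratio or table difference each way, and up to 4 per list plus defining genes; others named, such as divergent partners, were chosen after their values were seen.

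Expected counts were rounded, library sizes came from edgeR 4.0.16 (TMM) in R 4.3.3, and log2 ratios used a prior count of 2. Genes averaging 1 TPM or more were compared by a two-sided exact binomial test (scipy 1.17.1), adjusted at 0.05. Intervals are 95% Clopper-Pearson and cover counting error only. On simulated Poisson counts (12189 genes, 200 changed by 1.5 or 2 on the log2 scale) 98% of the changed genes passed the test at each size, with 9 unchanged genes. These counts held counting error only, as the test itself assumes. The simulation therefore cannot show how the test does with shared reads or other variation between libraries. Replication over replacement ratios are of summed TPM. Alternatives were another table, length, scaling, filter, prior count, and each library left out; spike-ins were left out of library sizes.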

Additional observations from a re-analysis of the deposited data

How the results depend on the processing

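No paired analysis was possible because there is 1 group of 2 libraries. Class sums in the second table moved by more than 1 SD for H2B (86.3 TPM) and H3 (40.4 TPM). Length taken to the stem-loop, chosen after seeing the data, moved the sum of all genes to 825.3 TPM, H1 to 161.9, H2A to 184.8, H2B to 116.5, H3 to 44.4 and H4 to 317.7 TPM; this alternative shortens the divisor by construction. The ratio of replication to replacement genes was 1.45 for H2A by counts per kilobase of full length, and for H3 0.144 in the second table and 0.150 by counts per kilobase. The share of TPM on transcripts ending near the stem-loop was 42.9% with a window of 50 bases and 60.9% in the second table. The median log2 ratio of the libraries was -0.37 in the second table, and between -0.33 and -0.16 under the other scalings, filters and prior count. The 8 genes 2-fold lower and 1 higher became 0 and 0 among genes averaging 5 TPM or more, and 4 and 0 over mostly unique genes (a restriction chosen after seeing the data), as fewer genes were tested. By counts in place of TPM, 26 genes were 2-fold lower and 5 higher in the second table; for the other moved values the cause was not tested. The other 59 alternatives for these results stayed within 1 SD, within 0.1 for the median, or within 1.5 times for counts. For means of the 2 libraries, a value with either library left out is within 1 SD by construction. Those alternatives therefore say nothing about stability. Leaving out either library gave 483.8 to 573.2 TPM for all genes and 44 to 54 genes at 1 TPM or more. With spike-in scaling the median over all genes was 0.08 and with total counts -0.10, so the histone genes' medians shift with it, and the sum of all histone genes turned to 0.02 with spike-in counts. Precision is limited by 2 libraries and by the low counts of the 8 genes 2-fold lower in replicate 2, at most 56.3 expected counts in either library.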
